A study of Schizosaccharomyces pombe with 6 samples.

Results

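The genes described here encode the proteins of the cytosolic ribosome of fission yeast, Schizosaccharomyces pombe. They were taken by annotation: a symbol that starts with rpl, rps or rpp and a digit, a product described as a ribosomal protein, and no antisense feature. This gave 138 of 6986 counted features, of which 76 belong to the large (60S) subunit, 55 to the small (40S) subunit and 7 to the acidic stalk of the large subunit. Of the other symbols of that form, 9 were antisense features and 3 were RNase P or RNase MRP subunit genes, and none of these 12 was kept.

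A ribosome holds one copy of nearly every ribosomal protein, so cells make their mRNAs in step, and in growing yeast these are among the most abundant mRNAs. Fission yeast encodes most of these proteins in 2 or 3 paralogous genes whose products are alike or identical, and each copy has its own promoter, untranslated regions and 3' end. Many of the promoters carry the HomolD box, which takes the place of a TATA box, often with a second element called HomolE.

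Polyadenylated RNA had been sequenced from log-phase vegetative cultures in the rich medium YES at 30 °C. The wild type was the h+ strain rpb1-CTD-WT29::NatMX, and the mutant, also h+, carried the allele STF19, which is seb1-G476S, beside rpb1-CTD-WT29 marked with KanMX. Each had 3 biological replicates according to the series' design text, and the wild-type libraries came from the same sequencing run but had been deposited earlier. Seb1, the altered protein, is essential, binds nascent RNA and RNA polymerase II, and acts in choosing 3' ends and in ending transcription. Both strains carried a drug marker linked to rpb1, and the kind of marker differed together with the seb1 allele, so an effect of one cannot be told apart from an effect of the other. Each genotype was 1 strain. Libraries held 21013941 to 27910803 counts, and the members were deeply covered, with 1810 to 165351 counts per gene and library. Levels are CPM, the usual per-library scaling of counts, on TMM-scaled library sizes, given as mean ± SD (n = 3 libraries), and fold changes are log2 values of mutant over wild type with standard errors (SE). "Called" means an adjusted p under 0.05 in edgeR's quasi-likelihood test over all 6046 features tested. Listed markers of P cells, the h+ mating type, summed to between 39.1 and 51.8 CPM in wild-type libraries and between 68.1 and 80.1 CPM in mutant libraries (3 of 5 genes matched), and those of M cells to between 54.0 and 64.2 and between 59.9 and 67.1 CPM (7 of 7 matched, with mat1-Mc and mat1-Mi at 0 in every library). Their part in the results below was not tested. Since gene counts show no sequence, the seb1 allele of each library could not be checked from them.

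In 3 families, paralogues were called in opposite directions, and the 120 bases before the annotated transcript start of these 6 genes are shown to let the copies be compared (RefSeq, assembly ASM294v3, strand of the gene). The capitals mark the HomolD box, CAGTCACA or its reverse complement TGTGACTG, and the HomolE core, AGGGTAGGG or its reverse complement CCCTACCCT.
rps2201 (chromosome I, minus strand): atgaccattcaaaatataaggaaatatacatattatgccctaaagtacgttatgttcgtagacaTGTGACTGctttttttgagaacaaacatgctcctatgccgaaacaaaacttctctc
rps2202 (chromosome I, minus strand): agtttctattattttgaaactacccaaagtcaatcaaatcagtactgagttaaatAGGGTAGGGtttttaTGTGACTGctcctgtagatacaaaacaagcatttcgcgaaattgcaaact
rps2801 (chromosome I, plus strand): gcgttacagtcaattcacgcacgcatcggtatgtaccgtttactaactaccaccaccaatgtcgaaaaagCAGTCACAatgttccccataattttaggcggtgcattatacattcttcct
rps2802 (chromosome III, minus strand): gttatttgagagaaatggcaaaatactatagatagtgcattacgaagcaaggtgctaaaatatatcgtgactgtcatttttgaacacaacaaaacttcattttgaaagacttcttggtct
rpl1701 (chromosome II, minus strand): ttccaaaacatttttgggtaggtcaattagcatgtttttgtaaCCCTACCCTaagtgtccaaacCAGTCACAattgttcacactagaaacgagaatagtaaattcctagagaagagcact
rpl1702 (chromosome III, minus strand): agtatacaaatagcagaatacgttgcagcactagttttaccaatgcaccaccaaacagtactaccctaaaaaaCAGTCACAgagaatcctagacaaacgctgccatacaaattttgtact

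Within these windows, 5 of the 6 genes held an exact HomolD box and 2 held the HomolE core, rps2202 and rpl1701. The copy called higher had the HomolE core in the rpl17 family and the copy called lower had it in the rps22 family. No exact match in rps2802 says only that these letters are not in this window.

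A wider window ran from 250 bases before to 50 bases after each transcript start, on both strands. It held the HomolD box in 88 of 138 members (63.8%) and in 137 of all 5112 coding genes with a full window (2.68%). It held the HomolE core in 49 members (35.5%) and 78 of all coding genes (1.53%). The 2 motifs do not overlap in their letters, and 27 members had both. The first base of the HomolD box lay at a median of 51.0 bases before the transcript start (quartiles 47.0 and 57.0), as written in 58 members and as the reverse complement in 30. The position listed for rpl701 lay after the start. HomolD was found in the window of 19 of 27 members called higher (70.4%), 13 of 20 called lower (65.0%) and 56 of 91 not called (61.5%). HomolE was found in that of 11 of 27 called higher (40.7%), 2 of 20 called lower and 36 of 91 not called (39.6%). These shares are a description and were not tested.

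The ribosomal protein genes as a whole moved little, and single genes moved in both directions. Of the 138 members, all of which were tested, 27 were called higher in the mutant and 20 lower, where 26.7% of all tested features were called higher and 28.4% lower (55.0% in either direction). The share called among the members, 47 of 138, was thus not above the background. None of the members changed by 2-fold, a size reached with a call by 9.1% of all tested features. The largest rise was that of rps2201, with a log2 fold change of 0.44, and the largest fall that of rpl3801, at -0.70. The median over the members was 0.07, and over all tested features -0.0078.

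**Figure D1:**
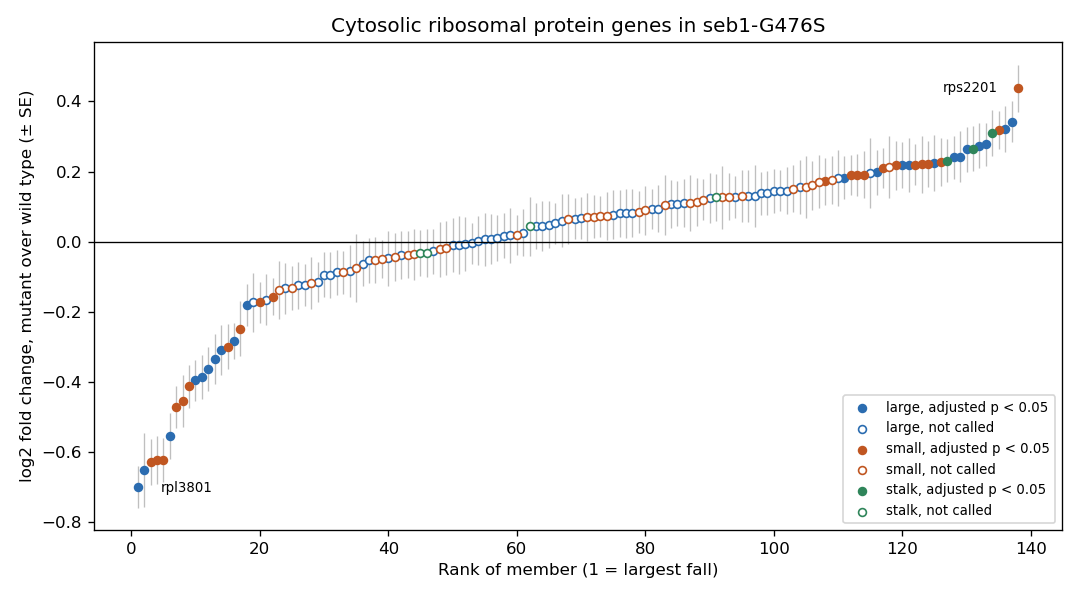
Log2 fold change of each of the 138 ribosomal protein genes, ordered from the largest fall to the largest rise, with SE as bars, colours for large subunit, small subunit and stalk, and filled points for genes called at an adjusted p under 0.05. The curve is steeper on the left, down to -0.70 for rpl3801, than on the right, up to 0.44 for rps2201, and most of the points lie near 0 and are open.

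The counts of calls moved with the library left out and with the scaling. Calls of higher members numbered 53 when wild-type replicate 1 was left out, beside 1677 of 6090 features tested. They numbered 13 when wild-type replicate 2, mutant replicate 1 or mutant replicate 2 was left out. In that order, 1380 of 6083, 1368 of 6082 and 1260 of 6078 features tested were then called higher. The members' share called higher was thus above that of all features in the first fit and below it in the others. With library totals alone as scaling there were 14 higher and 47 lower, beside 1148 and 2287 of all 6046 tested features. Of the calls over all features 33.4% were then in the higher direction, against 48.5% with TMM. That scaling moved the median log2 fold change of all tested features from -0.0078 to -0.13 and that of the members from 0.07 to -0.05. The members' median lay 0.07 above that of all features under both scalings. In 112 of 138 members replicate 1 was the highest of the wild-type libraries, and in 133 it was the highest of the mutant libraries.

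The summed level of all members shows the same dependence. On TMM-scaled libraries it was 246849, 227954 and 221818 CPM in wild-type replicates 1 to 3 and 258336, 243405 and 235437 CPM in mutant replicates 1 to 3. The groups overlapped, and the mean was 1.06-fold higher in the mutant (exact permutation test over libraries, two-sided, p = 0.3, where 3 against 3 libraries allow no p below 0.1). As a plain share of all counts the members held 24.85%, 23.95% and 23.72% of the wild-type libraries and 24.16%, 23.49% and 23.06% of the mutant libraries, so that the mean was 0.975-fold that of the wild type (exact permutation p = 0.3). The direction of the summed level therefore turned with the scaling, and under neither did the groups separate.

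**Figure D2:**
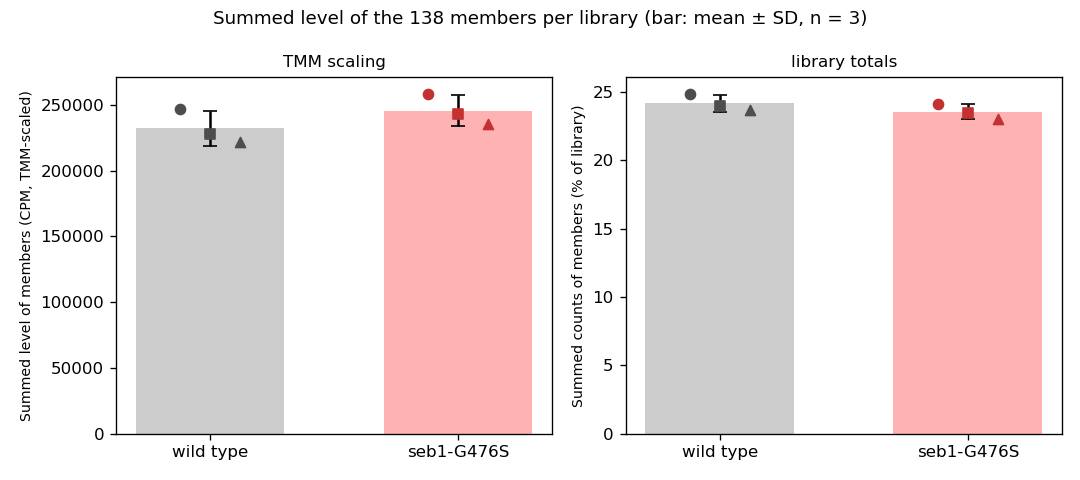
Summed level of the 138 members in each library, on the left in TMM-scaled CPM and on the right as a percentage of all counts. Bars are means with SD (n = 3) and symbols are libraries (circle, square and triangle for replicates 1, 2 and 3). The mutant bar is the higher one on the left and the lower one on the right, and the points of the groups overlap in both panels.

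The balance of the subunits needs no scaling, because it is a ratio within each library. Counts of large-subunit genes were 1.22, 1.23 and 1.23 times those of small-subunit genes in the wild type and 1.22, 1.22 and 1.22 times in the mutant, with overlapping groups (exact permutation p = 0.2). Of the 76 large-subunit genes 12 were called higher and 10 lower, and the median log2 fold change was 0.05. Of the 55 small-subunit genes 12 were called higher and 10 lower, with a median of 0.07. Of all tested features 26.7% were called higher and 28.4% lower, shares that neither subunit reached.

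The stalk is the flexible arm of the large subunit that recruits the GTPase factors of translation. It consists of the base protein Rpp0 and acidic proteins of the P1 type (rpp101, rpp102 and rpp103) and P2 type (rpp201, rpp202 and rpp203). Of these 7 genes 3 were called higher and 0 lower, beside 26.7% and 28.4% of all tested features. Nothing particular to the stalk is read from so few calls. The largest change was that of rpp201 (SPBP8B7.06, chromosome II), which had 1221, 1401 and 1233 CPM in wild-type libraries and 1599, 1630 and 1551 CPM in mutant libraries. Every mutant library lay above every wild-type library, and the log2 fold change was 0.31 (SE 0.0658, edgeR adjusted p = 0.00341). The gene rpp102 (SPBC3B9.13c, chromosome II) had 762, 766 and 737 CPM in wild-type libraries and 970, 920 and 834 CPM in mutant libraries. Its groups did not overlap either, with a log2 fold change of 0.27 (SE 0.0639, edgeR adjusted p = 0.00641). The third, rpp101, had a log2 fold change of 0.23 (edgeR adjusted p = 0.0106). In the authors' deposited DESeq2 results the adjusted p was 0.0162 for rpp201, 0.0505 for rpp101 and 0.0668 for rpp102.

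The other stalk genes were not called. The log2 fold change was 0.13 for rpp0, 0.04 for rpp203, and -0.03 for both rpp103 and rpp202. Stalk counts made up 3.59%, 3.91% and 3.73% of the counts of all other members in the wild type and 3.92%, 3.98% and 3.93% in the mutant. By this ratio the mutant libraries lay just above the wild-type libraries (exact permutation p = 0.1, the smallest possible). The summed stalk level did not overlap between the groups in TMM-scaled CPM (exact permutation p = 0.1). As a share of all counts it did overlap (exact permutation p = 0.3).

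Paralogues of 1 family were compared with each other within each library. The symbols define 52 families, 47 with 2 members and 5 with 3, which give 62 pairs. For each pair the log2 ratio of the counts was taken within a library, so that library size and scaling cancel. In 46 of the 62 pairs, from 39 of the 52 families, the ratio did not overlap between the groups. A background share for such ratios was not computed. Single features had groups that did not overlap in 63.9% of cases, so nothing particular to the paralogues is read from the count. Most of the shifts were small, with a median size of 0.14 on the log2 scale, and 5 exceeded 0.5. Both genes of a pair were called higher in 2 pairs and lower in 4, they were called in opposite directions in 3, and 26 pairs had 1 called gene.

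The family of Rps22, a small-subunit protein, shifted most. Its genes rps2201 (SPAC22A12.04c, chromosome I) and rps2202 (SPAC5D6.01, chromosome I) encode identical proteins from coding sequences that are 92.4% identical. The level of rps2201 was 1954, 1740 and 1661 CPM in wild-type libraries and 2428, 2424 and 2400 CPM in mutant libraries. All 3 mutant libraries were higher, and they lay closer together than the wild-type libraries. The level of rps2202 was 420, 412 and 392 CPM in wild-type libraries and 288, 255 and 248 CPM in mutant libraries, with all 3 mutant libraries lower. The log2 fold change was 0.44 for rps2201 (SE 0.0681, edgeR adjusted p = 0.000663) and -0.63 for rps2202 (SE 0.0665, edgeR adjusted p = 7.96e-05). The share of rps2201 in the counts of the pair went from 81.4% to 90.2%, a shift of the log2 ratio from 2.13 ± 0.08 to 3.20 ± 0.11 (n = 3 libraries; exact permutation p = 0.1, the smallest possible).

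As a total, the rps22 family had 2374, 2152 and 2052 CPM in wild-type libraries and 2716, 2679 and 2648 CPM in mutant libraries, higher in every mutant library. The genes differ in build as well: rps2201 has no intron, while the only intron of rps2202 lies outside its coding sequence. An intron outside the coding sequence was annotated in 1 other member, rpl39. It was also called lower (log2 fold change -0.18, edgeR adjusted p = 0.0279), though not with any 1 of the mutant libraries left out (0.0523 to 0.0996). From transcript start to coding sequence rps2202 spans 201 bases and rpl39 spans 5, so the introns need not lie on the same side of it.

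Rps28, another small-subunit protein, showed a shift of the log2 ratio of 0.64 between its copies. The genes rps2801 (SPAC25G10.06, chromosome I) and rps2802 (SPCC285.15c, chromosome III) also encode identical proteins. The level of rps2801 was 752, 660 and 714 CPM in wild-type libraries and 880, 805 and 794 CPM in mutant libraries. That of rps2802 was 677, 615 and 624 CPM in wild-type libraries and 504, 481 and 454 CPM in mutant libraries. The groups did not overlap for either gene. The log2 fold change was 0.22 for rps2801 (SE 0.0663, edgeR adjusted p = 0.0177) and -0.41 for rps2802 (SE 0.0614, edgeR adjusted p = 0.000507). The share of rps2801 went from 52.6% to 63.3% of the pair. The call of rps2801 was lost with library totals alone (edgeR adjusted p = 0.104) and with wild-type replicate 2 or mutant replicate 1 left out (0.0724 to 0.0867), but the ratio of the pair does not depend on scaling.

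Rpl17, a large-subunit protein at the exit of the peptide tunnel, is encoded by rpl1701 (SPBC2F12.04, chromosome II) and rpl1702 (SPCC364.03, chromosome III), whose proteins are 97.9% identical. The level of rpl1701 was 2292, 2297 and 2157 CPM in wild-type libraries and 2856, 2728 and 2592 CPM in mutant libraries. That of rpl1702 was 2029, 1847 and 1780 CPM in wild-type libraries and 1622, 1525 and 1418 CPM in mutant libraries. Again every library of one group lay on one side of every library of the other. The log2 fold changes were 0.28 (SE 0.0608, edgeR adjusted p = 0.00405) and -0.31 (SE 0.0715, edgeR adjusted p = 0.00524), and rpl1701 went from 54.4% to 64.2% of the pair.

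**Figure D3:**
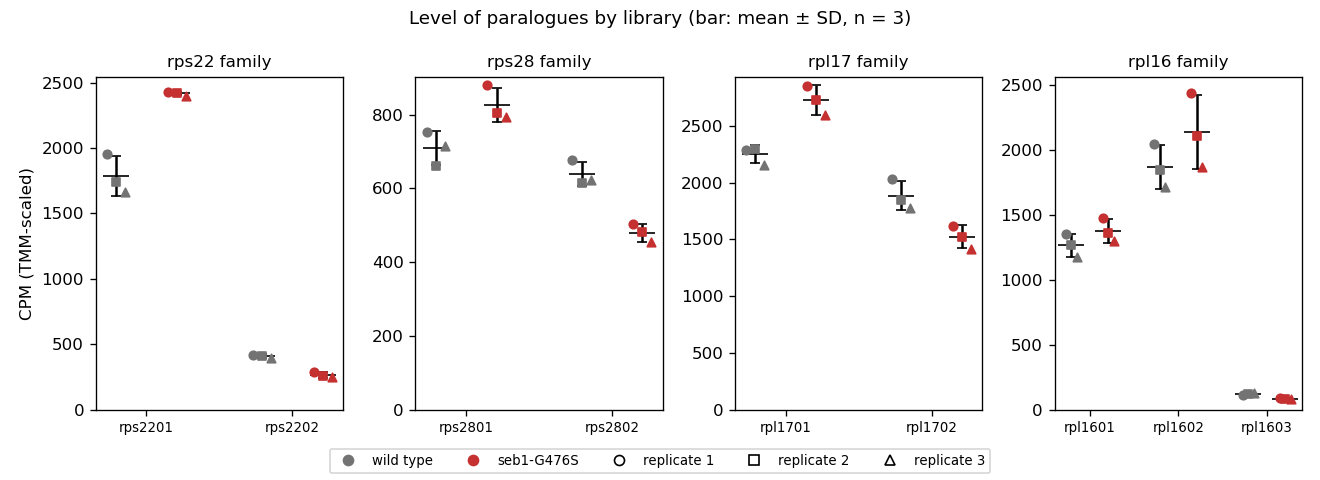
Level in TMM-scaled CPM of the genes of 4 families in each library, grey for wild type and red for mutant, with symbols for replicates and bars for mean ± SD (n = 3). In the rps22, rps28 and rpl17 families one copy is higher and the other lower in the mutant, and in the rpl16 family the weakest copy, rpl1603, is the one called lower.

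The rpl16 family had the largest shift after rps22, and the rps24 and rps19 families followed rpl17. In these 3 families no copy was called higher. In the family of Rpl16, a large-subunit protein, the third copy rpl1603 (SPBC2G2.05, chromosome II) had 113, 120 and 124 CPM in wild-type libraries and 86.4, 78.8 and 78.0 CPM in mutant libraries. It fell by 0.55 on the log2 scale (SE 0.0649, edgeR adjusted p = 0.000146). The strongly expressed copies rpl1601 and rpl1602 had log2 fold changes of 0.12 and 0.19 and were not called. Against rpl1602, the log2 ratio shifted by 0.75. The annotated transcript of rpl1603 is 2640 bases long, the longest of all members. Its coding sequence of 594 bases starts 13 bases after the transcript start, so most of the transcript lies after the coding sequence.

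Both genes of Rps24, a small-subunit protein, were called lower, and unequally. The level of rps2401 (SPAC17G6.06, chromosome I) was 577, 598 and 660 CPM in wild-type libraries and 393, 391 and 408 CPM in mutant libraries, a log2 fold change of -0.62 (SE 0.0617, edgeR adjusted p = 5.70e-05). The more abundant copy rps2402 was at -0.16 (edgeR adjusted p = 0.0290), a call lost without wild-type replicate 2, mutant replicate 2 or mutant replicate 3 (adjusted p = 0.0567 to 0.155). The share of rps2401 in the pair went from 33.5% to 26.7%. In the family of Rps19, the minor copy rps1902 had 583, 544 and 536 CPM in wild-type libraries and 484, 442 and 424 CPM in mutant libraries (log2 fold change -0.30, edgeR adjusted p = 0.00355). The major copy rps1901 was at 0.13 and was not called (adjusted p = 0.165), and its share went from 82.6% to 86.5%.

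**Figure D4:**
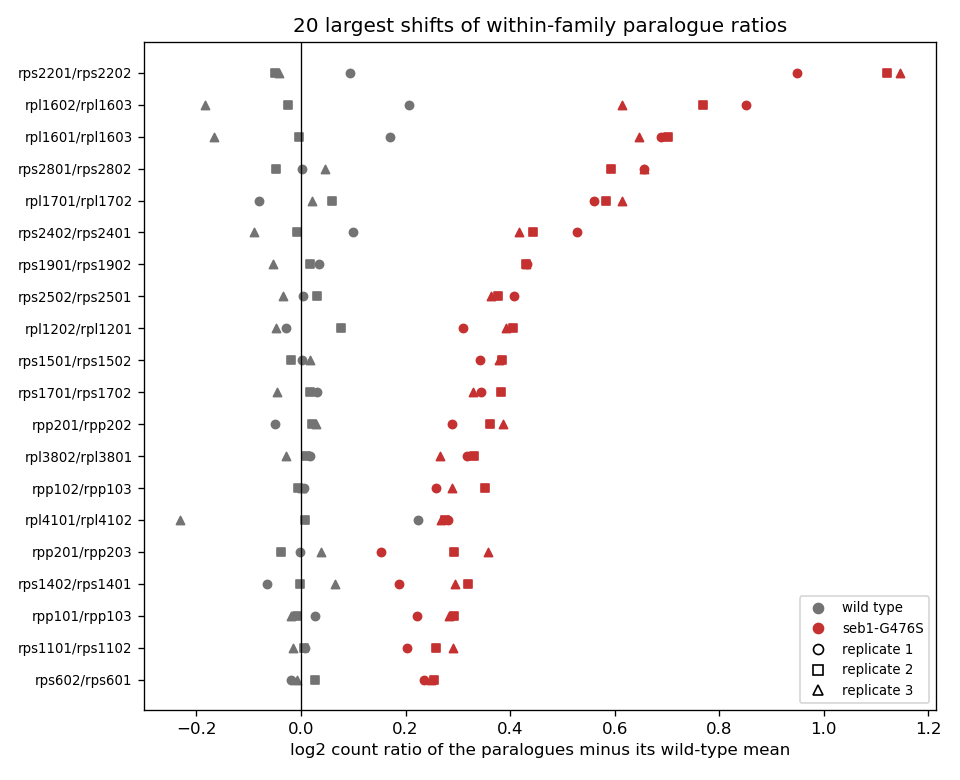
Log2 ratio of the counts of 2 paralogues in each library, relative to its wild-type mean, for the 20 pairs with the largest shift, with the copy that gained written first. Grey wild-type points scatter around 0 and red mutant points lie to the right of them in all 20 pairs, which were chosen by the size of the shift, and up to 1.07 for rps2201 over rps2202.

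At the other end, several families kept the ratio of their copies within the spread of the replicates. The genes rpl1801 and rpl1802 were both called higher, at 0.24 each, and rpl1801 held 49.91% of the pair in the wild type and 49.98% in the mutant. The call of rpl1802 was lost with library totals alone and with wild-type replicate 2, mutant replicate 1 or mutant replicate 2 left out (edgeR adjusted p = 0.0631 to 0.0860). The ratio of rpl3601 to rpl3602 was 1.10 on the log2 scale in both groups (SD 0.0357 and 0.0211). A pair of P1 genes, rpp101 and rpp102, also kept its ratio, with a shift of 0.03 and overlapping groups, while rpp103 lost ground to both.

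How well reads can be told apart differs between families. The coding sequences of the pairs were between 66.1% and 99.6% identical (median 86.8%), and 15 of the 62 pairs encode identical proteins. In 15 pairs the spliced transcripts shared a run of at least 50 bases, and in 3 pairs more than 20% of the 50-base windows of a transcript recurred in the other. These 3 pairs were rpl301 and rpl302, with a shared run of 848 bases, rpl1201 and rpl1202, with one of 485 bases and 99.6% identity, and rpl1001 and rpl1002, with one of 149 bases. Their counts and ratios are uncertain, as are the calls of rpl1202 (log2 fold change 0.34, edgeR adjusted p = 0.00111) and of rpl1001. All 3 ratios are among the 46 that did not overlap. How the authors' counting treated reads with several matches is not given in the sources used here. In the rps28 and rpl17 families the longest shared run was 17 and 41 bases, and in the rps22 family 52 bases.

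Many of the falls were in genes with short transcripts that encode small proteins. Among the 15 members with a spliced transcript under 400 bases, 8 were called lower and 1 higher, and the median log2 fold change was -0.18. In the 27 from 400 to under 500 bases, 4 were called lower and 8 higher. In the 96 with 500 bases or more, 8 were called lower and 18 higher, with a median of 0.08. Coding genes outside the members still include other ribosome genes, such as cpc2 and the ubiquitin fusion genes described below. They had a median of -0.17 in the 149 under 500 bases and -0.05 in the 4665 longer ones. In that order 40.3% and 31.8% were called lower, but there was no steady order by length. Their median was -0.15 under 400 bases (35.2% called lower), -0.30 from 400 to under 500, -0.02 from 500 to under 600 and -0.25 from 600 to under 700 (47.7% called lower). Of the 246 coding genes outside the members at or above the members' 10th percentile of wild-type level, 41.1% were called higher and 11.8% lower. Among these 246 genes 0 had a transcript under 500 bases. Across the 138 members, Spearman's rho between transcript length and log2 fold change was 0.24, which describes genes of the same libraries and is not a test.

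All 15 of the shortest transcripts come from genes with introns, so length and introns cannot be told apart there. Among members under 500 bases, 12 of 35 with an intron were called lower and 6 higher. Of the 7 without one, 0 were called lower and 3 higher. Among longer members, 4 of 40 with an intron were called lower and 9 higher, and 4 of 56 without one lower and 9 higher. Over all tested features 28.4% were called lower and 26.7% higher. Members called lower had a median wild-type level of 1641 CPM per kb of spliced transcript, those called higher 3307 and those not called 2454. Over the 138 members rho between wild-type CPM per kb and log2 fold change was 0.46. The parts of length, introns and level in these falls were not tested.

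**Figure D5:**
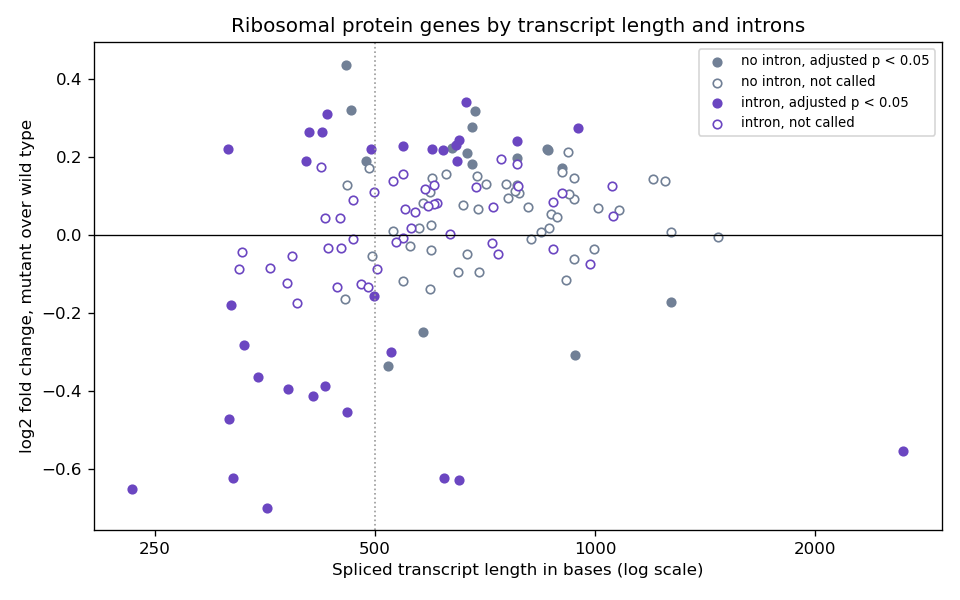
Log2 fold change of the 138 members against the length of the spliced transcript (log axis), grey for genes without and purple for genes with an intron, filled where called at an adjusted p under 0.05, with a dotted line at 500 bases. Of the 15 members under 400 bases, 8 are filled points below 0 and 1 is a filled point above 0.

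Rpl38, a small basic protein of the large subunit, had both of its genes called lower. The level of rpl3801 (SPBC577.02, chromosome II) was 455, 427 and 471 CPM in wild-type libraries and 290, 266 and 276 CPM in mutant libraries. This was 1.63-fold lower, with no overlap (log2 fold change -0.70, SE 0.0595, edgeR adjusted p = 2.34e-05). The level of rpl3802 (SPAC30D11.12, chromosome I) was 771, 718 and 772 CPM in wild-type libraries and 605, 559 and 555 CPM in mutant libraries (log2 fold change -0.40, edgeR adjusted p = 0.000478).

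Rps30, a small-subunit protein, likewise had both genes called lower. The level of rps3002 (SPBC19G7.03c, chromosome II) was 617, 555 and 620 CPM in wild-type libraries and 418, 369 and 376 CPM in mutant libraries (log2 fold change -0.62, SE 0.0682, edgeR adjusted p = 9.67e-05). The level of rps3001 (SPAC19B12.04, chromosome I) was 488, 474 and 574 CPM in wild-type libraries and 374, 376 and 371 CPM in mutant libraries (log2 fold change -0.46, SE 0.0733, edgeR adjusted p = 0.000792). Together the 2 genes went from 1110 ± 82.5 to 761 ± 26.4 CPM, the largest change of any family total (log2 change -0.54).

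The shortest transcript of all members, 233 bases, belongs to rpl4102 (SPAC3F10.18c, chromosome I), a gene for Rpl41, the smallest protein of the ribosome. It had 312, 321 and 426 CPM in wild-type libraries and 233, 223 and 219 CPM in mutant libraries. Wild-type replicate 3 stood above the others, the groups did not overlap, and the log2 fold change was -0.65 (SE 0.106, edgeR adjusted p = 0.000849). Its paralogue rpl4101 was at -0.36 (adjusted p = 0.00115). In the family of Rps25, rps2501 (SPBC3D6.15, chromosome II) had 505, 445 and 485 CPM in wild-type libraries and 355, 341 and 338 CPM in mutant libraries (log2 fold change -0.47, edgeR adjusted p = 0.000227), while rps2502 was at -0.09 and was not called.

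Among all 52 families, the total of the paralogues did not overlap between groups in 18, with 12 higher and 6 lower in the mutant. This was no larger a share than the 63.9% of single features tested. The 6 lower ones were rpl32, rpl38, rpl41, rps24, rps25 and rps30.

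The rises came from genes of both subunits and of the stalk, and were smaller than the largest falls. After rps2201 and rpl1202, the largest were those of rpl44, rps1501 and rpp201. The level of rpl44 (SPAC1687.06c, chromosome I) was 2068, 1866 and 1833 CPM in wild-type libraries and 2494, 2375 and 2336 CPM in mutant libraries (log2 fold change 0.32, SE 0.0645, edgeR adjusted p = 0.00256). The level of rps1501 (SPCC1393.03, chromosome III), a gene for the small-subunit protein Rps15, was 2250, 2124 and 2115 CPM in wild-type libraries and 2703, 2695 and 2696 CPM in mutant libraries (log2 fold change 0.32, SE 0.0547, edgeR adjusted p = 0.00112). Its paralogue rps1502 was at -0.05 and was not called.

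The gene rpl701 (SPBC18H10.12c, chromosome II), which the deposited annotation describes as L7-like and as an RNase MRP subunit, had 3517, 3528 and 3256 CPM in wild-type libraries and 4380, 4094 and 3975 CPM in mutant libraries (log2 fold change 0.27, edgeR adjusted p = 0.00585). A small nucleolar RNA gene, snoR39b, lies within rpl701 on the same strand and was not called (log2 fold change 0.40, adjusted p = 0.187). The gene rpl35a was at 0.26 (adjusted p = 0.00682).

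Levels per kilobase of spliced transcript allow the members to be compared with each other. In the wild type they ran from 45.1 to 6440 CPM per kb with a median of 2549. The highest were rpl8 at 6440 ± 441, rps7 at 5853 ± 381 and rps27 at 5381 ± 442 CPM per kb, and neighbours in this order overlapped within mean ± SD. These 3 genes were not called, with log2 fold changes of 0.11, 0.13 and 0.18. The lowest were rpl1603 at 45.1 ± 2.08, rpl1201 at 186 ± 12.7 and rpl3402 at 231 ± 11.2 CPM per kb, each the minor copy of its family, with the value of rpl1201 uncertain for the reason given above. A long annotated untranslated region lowers the value of rpl1603.

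Antisense features named after members were very weak beside the genes they oppose. Of 8 such features 7 were tested, and the mean levels of the 8 were between 0.209 and 2.79 CPM in wild-type libraries and between 0.265 and 2.02 CPM in mutant libraries. Those of rpl1801, rpl2001 and rpl1002 were called higher, with log2 fold changes of 1.53, 1.08 and 0.96 (edgeR adjusted p = 0.00453, 0.0167 and 0.0259) from counts of 5 to 16 per library in the wild type. Of all tested features 26.7% were called higher, and nothing particular to these few features is read from the count. The call for rpl1002 was lost with any of 4 libraries left out (wild-type replicates 2 and 3, mutant replicates 1 and 3) and in DESeq2 (adjusted p = 0.0563 to 0.207), and that for rpl2001 without mutant replicate 1 and in DESeq2 (0.0612 and 0.0896). The genes opposite had log2 fold changes of 0.24, 0.08 and 0.09, and of these rpl1801 was called. The strand option of the authors' counting is not given in the sources used here.

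Genes that work with the ribosomal proteins were taken from a list of 28, of which 25 were matched and tested. Of these 8 were called higher and 10 lower, beside 26.7% and 28.4% of all tested features, and their median was -0.05 on the log2 scale. The 3 matched genes that encode a ribosomal protein fused to ubiquitin were all called lower, ubi1 at -0.25 (adjusted p = 0.0180), ubi3 at -0.25 (adjusted p = 0.00892) and ubi5 at -0.25 (adjusted p = 0.00978). The call of ubi1 was lost without mutant replicate 2 or 3 (adjusted p = 0.0675 and 0.0565). The gene of the small-subunit component Cpc2 (RACK1) was at 0.19 and was not called.

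Of the genes that assist newly made ribosomal proteins, 4 assembly factors were called lower. The largest change was that of puf6, an RNA-binding protein gene, with 143 ± 32.4 CPM in wild-type libraries and 78.0 ± 7.54 CPM in mutant libraries (log2 fold change -0.88, SE 0.140, edgeR adjusted p = 0.000757). In the same direction were yar1, a chaperone of Rps3 in budding yeast, at -0.58 (adjusted p = 0.00129), tsr2, a chaperone of Rps26 in budding yeast, at -0.58 (adjusted p = 0.000302), and sqt1, a chaperone of Rpl10 in budding yeast, at -0.40 (adjusted p = 0.00120). The import receptor gene kap104 (0.25) and tif6 (0.25), whose product keeps the subunits apart, were called higher. The genes rrb1 (0.000225) and kap123 (0.12) were not called.

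On the ribosome itself, the gene of the beta subunit of the nascent polypeptide-associated complex, btf3, was called lower (log2 fold change -0.45, adjusted p = 0.000854) and that of the alpha subunit, egd2, was not called (-0.05). The gene oga1, related to the ribosome-bound Stm1 of budding yeast, was called higher (0.42, adjusted p = 0.00859). Of the ribosome-associated chaperone genes, sks2 was called higher (0.20, edgeR adjusted p = 0.0410) and zuo1 was not called (-0.13). Among regulators, sck1 was called higher at 0.27 (adjusted p = 0.00385), and the S6 kinase gene psk1 was called lower at -0.32 (adjusted p = 0.0105). Also called higher were sfp1 at 0.22 (adjusted p = 0.0101), mip1 at 0.19 (adjusted p = 0.0394) and gad8 at 0.14 (adjusted p = 0.0416). The kinase gene sck2 was called lower at -0.22 (adjusted p = 0.0113). The forkhead factor gene fhl1 and the kinase gene tor2 were at -0.05 and 0.0026 and were not called.

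In the authors' deposited table, 31 of the 47 members called here had an adjusted p under 0.05 in the same direction. The member rpl102 passed there (DESeq2 adjusted p = 0.00791) but was not called here. DESeq2's Wald test as run here called 52 members and kept all 47 calls. Why the deposited results hold fewer of them was not tested.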

How the data were processed

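The deposited count table held raw whole-number counts for each annotated feature in 6 polyA RNA-seq libraries, as its file header and values show. The labels' protocols name a stranded mRNA kit and paired reads. Of tools and builds, the submitters' processing notes list HISAT2 (2.1.0), SAMtools, HTSeq (0.10.0) and DESeq2 with build ASM294v2. The authors' deposited comparison table gave log2 fold changes, p-values, scores (the Wald statistic and standard error) and a signal (averages of size-factor-scaled counts). Only its names, products, log2 fold changes and adjusted p were used.

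One identifier on 2 of 6987 rows was summed. The comparison used edgeR 4.0.16 in R 4.3.3 (quasi-likelihood test, TMM, filterByExpr with a minimum count of 10), fitted and adjusted (Benjamini-Hochberg) over 6046 features, and was tested on simulated data. SE was derived from each log2 change and its F statistic. Paralogue ratios used a pseudocount of 0.5 counts and exact two-sided permutation tests over libraries (SciPy 1.17.1). Gene models, transcript lengths and promoter windows came from RefSeq ASM294v3, matched by identifier for 138 of 138 members. A genome of build ASM294v2 was not used here, so no coordinates are given, and sequences are placed by its own gene models. Identities were computed with Biopython 1.88. Members and lists were chosen with earlier results of these data known. Genes were named by a rule on size of change, opposite calls, ratio shift and level. The families or genes named beside them (rpl39, rpl18, rpl36, the ubiquitin fusions, further partner genes and regulators, the family totals and paralogues) were chosen after their values were seen. Same-numbered libraries were not paired by the labels. Alternatives were other scalings, DESeq2 1.42.0, no low-count filter, a replicate block and leaving out each library.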

Additional observations from a re-analysis of the deposited data

How the results depend on the processing

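Of 52 named genes and features followed through the alternatives, 37 kept their direction and side of the threshold under every alternative run. The calls of rpl1802, rps2402, rps2801, rpl39, ubi1 and the antisense features of rpl2001 and rpl1002 were lost under 2 to 5 alternatives (adjusted p between 0.0523 and 0.207). The genes rpl1201, rpl1601, rpl1602, rpl8, rps1901, rps27 and rps7, not called here, gained a call under 1 to 4 of them. The direction of the uncalled rpl3402 and rpl8 turned with library totals alone (log2 fold changes -0.0660 and -0.0101), and that of rpl1201 without wild-type replicate 1 (0.0291). With library totals alone, 14 members were called higher, 47 lower, and 4 genes of the partner list higher, and the summed level (log2 mutant over wild type) was -0.0426 for the large subunit, -0.0349 for the small subunit and 0.0351 for the stalk. With totals that leave out the members it was -0.0541, -0.0464 and 0.0238. Leaving out each library in turn gave 13 to 53 members called higher, 16 to 26 lower, and 5 to 10 partner genes higher. Over all features tested, 1260 to 1708 were called higher in these fits and 1262 to 1835 lower. Of the 47 calls, 29 to 44 remained in these fits, 34 with library totals, and 47 with DESeq2's size factors, its Wald test or no low-count filter. The 46 paralogue ratios with groups that do not overlap came to 46 with a pseudocount of 5 counts. Over only the pairs whose proteins differ, a smaller set, they came to 33. With 3 pairs joined by product text, an alternative chosen after seeing the data that enlarges the set, they came to 48. The causes of these changes were not tested.

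With the replicate number as a block, 58 members were called higher and 33 lower, and all 47 calls were kept. Over all 6046 tested features, 1877 were then called higher and 2029 lower. The share of members called, 91 of 138, was then near that of all features, 3906 of 6046. Members were called higher in a larger share than all features, and lower in a smaller share. The main fit used no block because the labels do not pair the libraries. The deviations of same-numbered libraries correlated at 0.358, 0.058 and 0.263, and those of differently numbered libraries at -0.301 to 0.066. Every library except mutant replicate 2 correlated best with its own number. Whether the numbers mark pairs was not tested. Counts of at least 1810 per member and library leave the spread between 3 libraries, not depth, as the limit, and the exact tests over libraries cannot go below p = 0.1.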
